A study of Mus musculus with 41 samples.

Results

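The 10 immediate-early genes examined here were Fos, Fosb, Fosl1, Jun, Junb, Jund, Egr1, Ier2, Atf3 and Dusp1, taken by symbol from the 47480 gene symbols of the deposited matrix. All 10 were found, and all 10 passed the filter of a mean value of at least 10 that left 17208 genes for testing. Immediate-early genes are transcribed within minutes of a stimulus from factors already present in the cell, without new protein synthesis. Fos and Jun proteins pair to form AP-1, a transcription factor downstream of growth factor and stress kinases, and the feedback phosphatase Dusp1 switches those kinases off again. In mammary epithelium and its tumors they are known as readouts of growth factor and mitogen-activated protein (MAP) kinase signaling.

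RNA was sequenced in 41 mouse mammary tumors (1 library each), and the comparison of genotypes asks how loss of Plk2, a polo-like kinase, alters tumors that already lack p53. There were 13 p53-null tumors (Balb/c; p53-/-) and 28 PLK2-null tumors (Balb/c; Plk2-/-; p53-/-), so that every tumor lacked p53. All had been injected orthotopically and left untreated, and wild-type host cells within a PLK2-null tumor still carry Plk2. The series text states that tumors were serially transplanted, and no label says which tumors descend from a common one. Tumors of a group may therefore not be independent, and p-values computed over them may then be too small. Host ages were not given in the sources used here. Tumor names give the genotype and then the number (PLK2null-1975). The titles of all 13 p53-null libraries carry a series name that no PLK2-null title carries, so that batch and genotype cannot be told apart. In bulk samples fewer cells of a type and less RNA per cell cannot be told apart.

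Values are linear, and the authors scaled each tumor to an upper quartile of 1000 over its nonzero values. The step between low values gave 29409598 to 70868089 fragments per p53-null tumor and 31910234 to 53244746 per PLK2-null tumor, and 3 reads were worth 1.16 to 2.45. No member was at 0 in any tumor, and the lowest value of any member was 17.98. Plk2, the targeted gene, ranged from 186 to 8028 in the p53-null tumors (median, 3402) and from 36.6 to 553 in the PLK2-null tumors (median, 284). The fitted difference was -3.39 on the log2 scale (SE, 0.38; adjusted p = 1.30e-09, limma). The groups overlapped through the library labelled p53null-7435, whose Plk2 value of 186 lay within the PLK2-null range. The position of the deletion in Plk2 was not given in the sources used here, so the remaining signal was not assigned to a part of the gene.

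Promoter windows of 250 bases upstream of the start were read for 7 of the 10 members and for Plk2 from the RefSeq table of GRCm38.p6. Fosl1, Egr1 and Ier2 had no entry. The starts in this table are not always those of the gene positions given elsewhere here. The Jund window ends at 70697738, which does not adjoin the Jund start of 70698949 given below. The Atf3 and Dusp1 windows lie within the longer spans that the gene positions give these genes. Both strands were searched for the cyclic AMP response element TGACGTCA, its core TGACGT, the AP-1 site TGANTCA, the TATA box TATAAA and the CArG box to which serum response factor binds. The core lies within the full element. The windows of Fos and Plk2 are shown because their transcripts moved together among PLK2-null tumors, that of Fosb because Fosb differed between the genotypes, and those of Dusp1 and Atf3 because they hold matches. Capitals mark the matches, and each window is written 5' to 3' on the strand of the gene.
Fos, chr12:85473640-85473889, strand plus: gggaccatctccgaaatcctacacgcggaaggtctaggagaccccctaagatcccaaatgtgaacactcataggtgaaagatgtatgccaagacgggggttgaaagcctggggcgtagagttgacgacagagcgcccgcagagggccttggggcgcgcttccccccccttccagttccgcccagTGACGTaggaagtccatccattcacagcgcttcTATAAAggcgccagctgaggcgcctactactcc
Fosb, chr7:19310046-19310295, strand minus: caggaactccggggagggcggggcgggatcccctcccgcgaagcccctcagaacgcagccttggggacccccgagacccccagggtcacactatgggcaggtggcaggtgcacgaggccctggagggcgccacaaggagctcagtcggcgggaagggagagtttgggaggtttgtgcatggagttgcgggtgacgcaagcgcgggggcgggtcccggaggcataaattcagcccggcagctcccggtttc
Dusp1, chr17:26508473-26508722, strand minus: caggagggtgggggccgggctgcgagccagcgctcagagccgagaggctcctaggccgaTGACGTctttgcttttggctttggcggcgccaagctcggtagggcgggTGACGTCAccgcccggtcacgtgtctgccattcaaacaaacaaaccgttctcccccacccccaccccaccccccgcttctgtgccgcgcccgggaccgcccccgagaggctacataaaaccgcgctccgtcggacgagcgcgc
Atf3, chr1:191183334-191183583, strand minus: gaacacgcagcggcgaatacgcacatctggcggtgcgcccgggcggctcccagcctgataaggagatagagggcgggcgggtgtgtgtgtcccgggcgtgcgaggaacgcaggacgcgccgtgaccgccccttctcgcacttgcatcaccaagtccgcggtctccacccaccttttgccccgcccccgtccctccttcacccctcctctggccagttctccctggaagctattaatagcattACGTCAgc
Plk2, chr13:110394794-110395043, strand plus: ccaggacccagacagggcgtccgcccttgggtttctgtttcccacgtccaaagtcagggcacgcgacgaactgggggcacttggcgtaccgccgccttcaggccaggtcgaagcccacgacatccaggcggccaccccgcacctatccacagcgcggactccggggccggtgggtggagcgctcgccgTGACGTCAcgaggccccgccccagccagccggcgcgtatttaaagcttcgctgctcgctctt
The full element lay 143 bases upstream of the Dusp1 start and 62 bases upstream of the Plk2 start, and 1.55% of 32851 mouse promoter windows of that length held one. Cores outside it lay 66 bases upstream of Fos, 191 bases upstream of Dusp1 and, on the other strand, 8 bases upstream of Atf3, and 6.47% of all windows held a core. Fos had a TATA box 33 bases upstream, as letters found in 12.4% of windows. The AP-1 site (6.75% of windows) and the CArG box (1.47%) were not found in the 8 windows, which says only that these letters are absent there. The window of Fosb held no match to any motif searched. These are matches of letters, and no binding was measured.

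Among the members, only Fosb, a Fos protein that dimerizes with Jun proteins, passed the test of genotype. Fosb was higher in the PLK2-null tumors by 1.85 on the log2 scale, a fold of 3.60. The other 9 members did not pass at an adjusted p of 0.05. Of all 17208 genes tested, 24.3% were higher in PLK2-null tumors, 15.3% were lower and 39.5% passed in either direction, so that 1 of 10 members was below the share of all genes. The median log2 difference was 0.46 over the members and 0.10 over all genes tested. Tests here and below are limma's moderated test on log2(value + 1), 28 against 13 tumors, with Benjamini-Hochberg adjustment over all genes tested. That scale slightly understates changes of genes with low values.

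**Figure D1:**
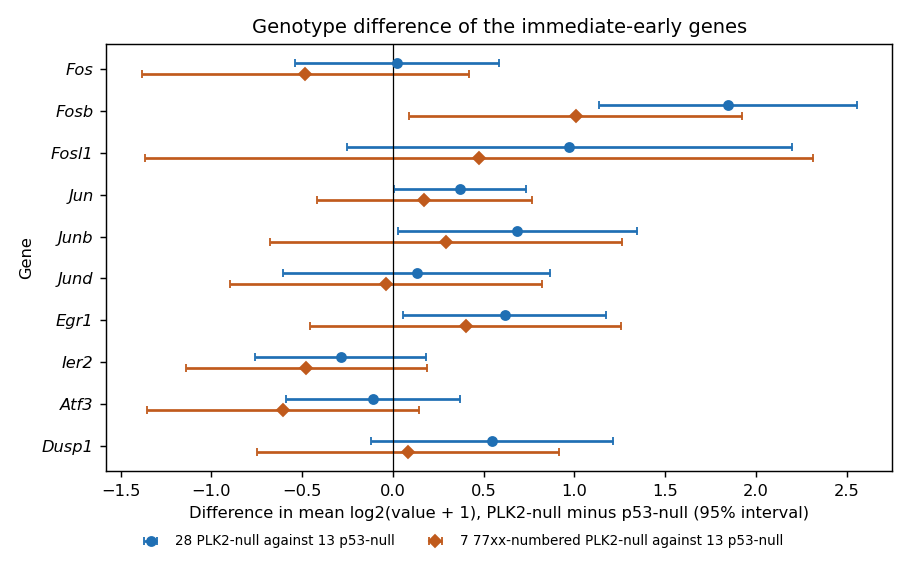
Difference in mean log2(value + 1) between PLK2-null and p53-null tumors for the 10 immediate-early genes, with 95% intervals from limma. Circles use all 28 PLK2-null tumors and diamonds the 7 with 77xx numbers. The Fosb interval reaches from 1.14 to 2.55 with all tumors and from 0.09 to 1.92 with the 7.

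Fosb (chromosome 7, 19302696 to 19310051, minus strand, GRCm38) ranged from 21.6 in p53null-2225L to 217 in p53null-2396R, with a median of 61.2 over the 13 p53-null tumors. In the 28 PLK2-null tumors it ranged from 45.7 in PLK2null-7747 to 2281 in PLK2null-1981, with a median of 227. The groups overlapped, with 15 of 28 PLK2-null tumors above the highest p53-null tumor and 27 above the p53-null median. PLK2null-1981 stood apart from the next tumor, PLK2null-1980, at 639. The log2 difference was 1.85 (SE, 0.35; 95% interval, 1.14 to 2.55; adjusted p = 4.39e-05, limma). Without PLK2null-1981 it was 1.72 (adjusted p = 1.94e-05). The call ended when the PLK2-null group was limited to the 7 tumors with 77xx numbers, none of which had another of the 7 as its nearest tumor by expression. The difference was then 1.01 (SE, 0.44; adjusted p = 0.126).

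Fos, the founding member of its family and known for rapid and transient induction, did not pass. Fos ranged from 214 to 2333 in the p53-null tumors (median, 756) and from 211 to 2011 in the PLK2-null tumors (median, 920). The ranges overlapped, with PLK2null-7763 below the lowest p53-null tumor and p53null-10155, at 2333, above the highest PLK2-null tumor, and 16 of 28 PLK2-null tumors were above the p53-null median. The log2 difference was 0.02 (SE, 0.28; 95% interval, -0.54 to 0.59; adjusted p = 0.957), and its sign turned under other scalings, at -0.06 with TMM factors and -0.08 with quantile normalization.

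Fosl1, which encodes the Fos protein Fra-1 known from invasive mammary cells, was the most variable member. Fosl1 ranged from 17.98 in p53null-10152 to 4008 in p53null-T11 (median, 89.6) in the p53-null tumors, and from 30.1 in PLK2null-7748 to 2647 in PLK2null-1974 (median, 242) in the PLK2-null tumors. PLK2null-1973 was next to PLK2null-1974 at 2539, and the p53-null tumor next to p53null-T11 was p53null-10155 at 559. The groups overlapped fully. The log2 difference was 0.97 (SE, 0.61; 95% interval, -0.26 to 2.20; adjusted p = 0.208). Whether it passed rested on p53null-T11, since without that tumor it was 1.38 (SE, 0.57; adjusted p = 0.0469).

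Of the Jun family, Jun, the founding AP-1 partner and target of Jun N-terminal kinase, ranged from 971 to 4079 in the p53-null tumors (median, 2788) and from 1692 to 6057 in the PLK2-null tumors (median, 3765). The groups overlapped, with 9 PLK2-null tumors above the highest p53-null tumor. The genotypes differed by 0.37 on the log2 scale (SE, 0.18; adjusted p = 0.0969). Junb, a Jun protein with weaker transactivation than Jun, ranged from 1299 to 5331 in the p53-null tumors (median, 2873) and from 858 to 9848 in the PLK2-null tumors (median, 5843). It was above the highest p53-null tumor in 16 PLK2-null tumors and below the lowest in 4. The log2 difference was 0.69 (SE, 0.33; adjusted p = 0.0904), and it passed when PLK2null-7748 was left out (0.77; adjusted p = 0.0429). Jund, the Jun protein that is present without a stimulus in most cells, differed by 0.13 (SE, 0.37; 95% interval, -0.61 to 0.87; adjusted p = 0.807).

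Egr1, a zinc-finger transcription factor induced by serum response factor and MAP kinase, ranged from 729 to 5414 in the p53-null tumors (median, 2177) and from 1129 to 8791 in the PLK2-null tumors (median, 2900). The groups overlapped, with 7 PLK2-null tumors above the highest p53-null tumor. The estimate for Egr1 was 0.61 on the log2 scale (SE, 0.28; 95% interval, 0.05 to 1.18; adjusted p = 0.0740). Single tumors decided this call, since Egr1 passed without p53null-10151 (0.73; adjusted p = 0.0360), without p53null-10152 (0.72; adjusted p = 0.0382), without p53null-10155 (0.70; adjusted p = 0.0466) and without PLK2null-7747 (0.67; adjusted p = 0.0443).

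Ier2, a nuclear protein induced early by serum, had a negative estimate. It ranged from 1085 to 4454 in the p53-null tumors (median, 2307) and from 659 to 4071 in the PLK2-null tumors (median, 2155), with 6 PLK2-null tumors below the lowest p53-null tumor. The estimate was -0.29 on the log2 scale (SE, 0.23; adjusted p = 0.342). Atf3, a stress-induced member of the ATF/CREB family, ranged from 275 to 1386 in the p53-null tumors (median, 589) and from 140 to 1101 in the PLK2-null tumors (median, 576). The ranges overlapped, and the log2 difference was -0.11 (SE, 0.24; 95% interval, -0.59 to 0.37; adjusted p = 0.744).

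Dusp1, the dual-specificity phosphatase that inactivates MAP kinases, ranged from 176 to 1494 in the p53-null tumors (median, 504) and from 232 to 4062 in the PLK2-null tumors (median, 707). Only 3 PLK2-null tumors were above the highest p53-null tumor, and they were the 3 that the study names claudin-low. The log2 difference was 0.54 (SE, 0.33; 95% interval, -0.12 to 1.21; adjusted p = 0.192), and 0.42 (adjusted p = 0.202) without the named claudin-low tumors of both genotypes.

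**Figure D2:**
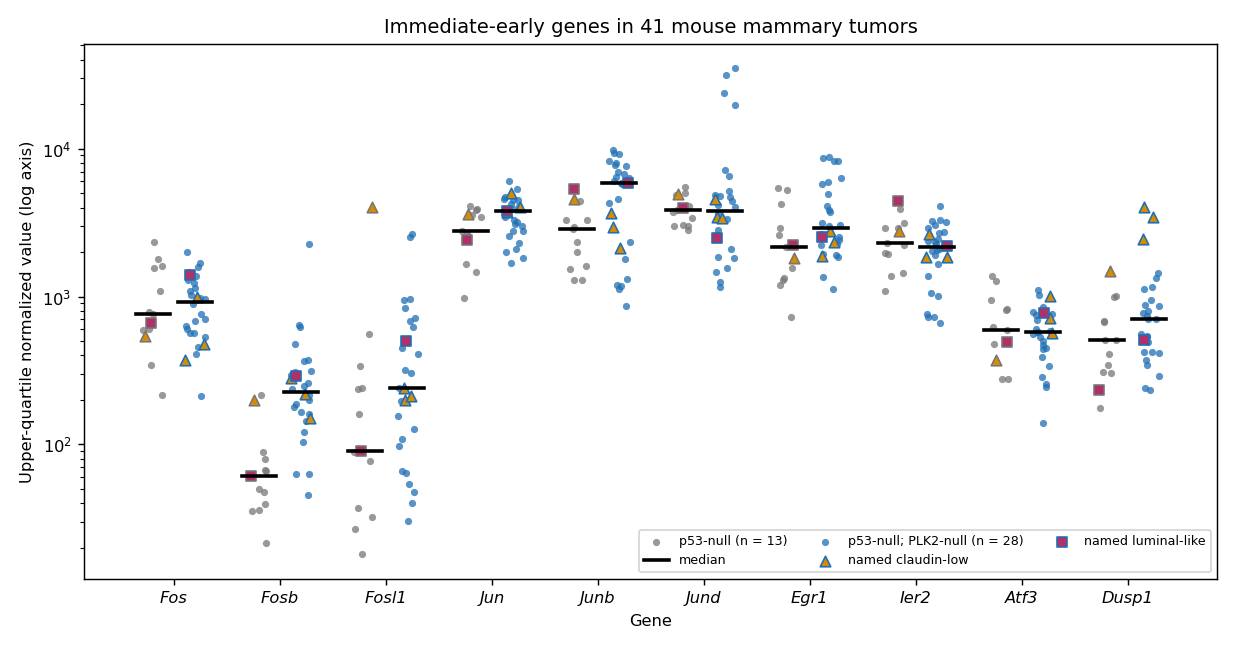
Deposited upper-quartile normalized value of each immediate-early gene in each tumor, on a log axis, with gray points for the 13 p53-null and blue points for the 28 PLK2-null tumors. Bars are medians, triangles the 4 named claudin-low and squares the 2 named luminal-like tumors. Fosb has medians of 61.2 and 227, and 4 PLK2-null tumors stand apart in Jund.

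Levels were ordered between genes per kilobase of exon, because a longer transcript gives more reads. Per kilobase, the medians in the p53-null tumors fell from Jund (2321), Ier2 (1516), Junb (1249), Jun (874), Egr1 (485), Fos (321), Atf3 (274) and Dusp1 (152) to Fosl1 (44.1) and Fosb (9.80). The PLK2-null order of medians per kilobase was Junb (2540), Jund (2285), Ier2 (1416), Jun (1181), Egr1 (647), Fos (391), Atf3 (267), Dusp1 (213), Fosl1 (119) and Fosb (36.3). Fosb was thus the lowest member in both genotypes. Of 9 pairs of neighbors in each order, 6 differed by less than 1 SD of their log2 difference over tumors, in both genotypes. Jund above Ier2 and Fosl1 above Fosb held beyond 1 SD in both. Junb and Jund in the PLK2-null tumors did not hold a fixed order, since Junb was above Jund in 12 of 28 tumors.

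The spread among tumors also differed from member to member. Jund had an SD of 0.33 on the log2 scale among the p53-null tumors, lower than all but 6.35% of the genes tested, and 1.32 among the PLK2-null tumors, higher than 78.3% of them. Fosl1 had SDs of 2.11 and 1.72, higher than 92.1% and 86.8% of genes. Jun had SDs of 0.64 and 0.48, and the median SD over all genes tested was 0.71 among p53-null and 0.63 among PLK2-null tumors. The difference in spread between genotypes was not tested.

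In Jund, 4 PLK2-null tumors stood apart. Jund (chromosome 8, 70698949 to 70700616, plus strand) had values of 34988 in PLK2null-1986, 31557 in PLK2null-7750, 23849 in PLK2null-1984 and 19711 in PLK2null-1985. The next PLK2-null tumor, PLK2null-1989, was at 7228, and the p53-null tumors lay between 2819 and 5468. In all, 6 PLK2-null tumors were above this range and 9 below it. The SD of Jund among the other 24 PLK2-null tumors was 0.75 on the log2 scale, between the 1.32 of all 28 and the 0.33 of the p53-null tumors. The genes around Jund were high in the same tumors. Of 36 protein-coding genes within 500 kb of it that passed the filter, 27 had all 4 tumors above each of the other 37 tumors. The share of all genes tested that set these 4 tumors apart was not computed, so this count is not shown to be particular to the region. The median deviation of these neighbors from their own median over 41 tumors was 2.63 in PLK2null-7750, 2.62 in PLK2null-1986, 2.24 in PLK2null-1984 and 1.93 in PLK2null-1985 on the log2 scale. The next tumor, PLK2null-1971, had 0.60.

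Named neighbors cover unrelated functions. The single-stranded DNA binding protein gene Ssbp4 was at 19800 to 29596 in the 4 tumors and at most 2863 in the other 37. Rab3a, a vesicle trafficking GTPase, was at 2283 to 6184 against at most 492. Comp, a cartilage matrix protein, was at 6571 to 13615 against at most 1842. These genes were picked for illustration after their values were seen. Of the 36 neighbors, 34 had the median deviation of the 4 tumors above 0, but some did not set the 4 apart. The cytokine gene Gdf15 was at 39.5 to 123 in the 4 tumors, below the highest of the others at 480. Il12rb1 was at 33.5 to 47.9, below 152. The medians of these 2 genes over 41 tumors were 39.5 and 26.2. The nearest tumor of each of the 4, over 2000 variable genes, was another of the 4. Each was counted as 1 sample, and whether they share a lineage was not labelled, in which case p-values would be too small. Copy number was not measured.

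**Figure D3:**
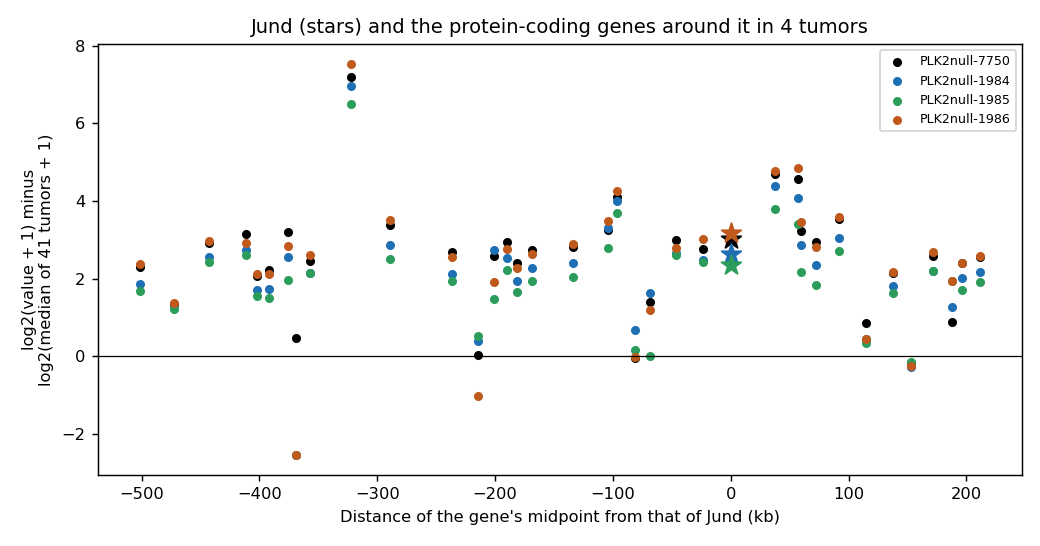
Deviation of each protein-coding gene within 500 kb of Jund from its median over 41 tumors (log2 scale), against the distance of its midpoint from that of Jund in kilobases, for the 4 PLK2-null tumors with the highest Jund. Stars are Jund itself, with values from 19711 to 34988, and 27 of the 36 neighbors were higher in these 4 tumors than in each of the other 37.

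Junb and Ier2 lie 312 kb apart on the same chromosome, and Ier2 lies 13961 kb from Jund. The lowest Junb values were 858 in PLK2null-7748, 1128 in PLK2null-7763, 1175 in PLK2null-1964 and 1200 in PLK2null-7747. The 30 protein-coding neighbors of Junb had median deviations of -0.65, -0.49, -0.29 and -0.52 on the log2 scale in these tumors, against -2.33, -1.93, -1.87 and -1.84 for Junb itself. Junb lay further below its median than its neighbors did, but these tumors were picked for their low Junb. A larger deviation of Junb was therefore likely from the choice alone. Ranked from the highest of 41 tumors, the neighbor medians stood at 41, 38, 34 and 40 in the same tumors. The part that neighboring genes have in the level of Junb was not tested.

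Most pairs of members correlated positively among tumors of a genotype. All 45 pairs of members had a positive Pearson r over the 28 PLK2-null tumors, with a median of 0.48 and 22 pairs above 0.5. Over the 13 p53-null tumors 42 of 45 pairs were positive, with a median of 0.32 and 10 pairs above 0.5. The closest pairs were Junb with Ier2 (r = 0.85) and Junb with Egr1 (r = 0.83) in the PLK2-null tumors, and Fosl1 with Junb (r = 0.80) in the p53-null tumors. The loosest in the PLK2-null tumors were Egr1 with Atf3 and Fos with Dusp1, both at r = 0.08. Junb and Ier2 lie 312 kb apart, and the part of their shared region in their correlation was not tested. All pairs of a genotype share the same libraries and their scaling, and the difference between genotypes was not tested. The share of positive pairs among all genes tested was not computed, so these counts are not shown to be particular to the members.

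**Figure D4:**
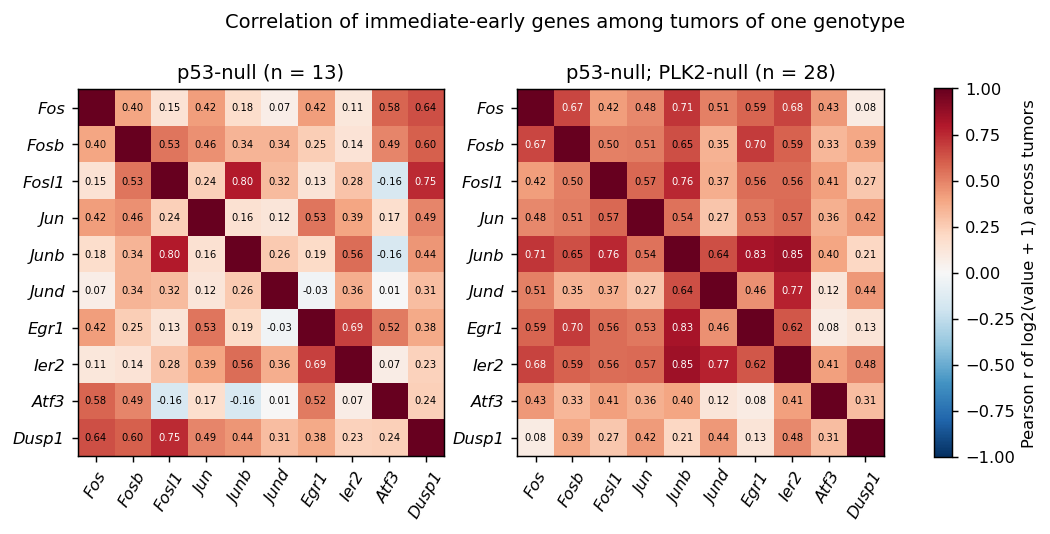
Pearson r of log2(value + 1) between each pair of the 10 immediate-early genes over the 13 p53-null (left) and the 28 PLK2-null tumors (right). Red is positive and blue negative. All 45 pairs were positive on the right and 42 on the left, and Dusp1 had r = 0.64 with Fos on the left and 0.08 on the right.

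Fos was then set against each other member, and Plk2 against each member, within a genotype. These made 38 relations, tested by 2-sided permutation of 100000 resamples with Benjamini-Hochberg adjustment over the 38. In the PLK2-null tumors Fos correlated with Junb (r = 0.71; rho = 0.60; p = 4.0e-05; adjusted p = 0.000665), Ier2 (r = 0.68; rho = 0.69; p = 7.0e-05; adjusted p = 0.000665) and Fosb (r = 0.67; rho = 0.66; p = 6.0e-05; adjusted p = 0.000665) by permutation. It also correlated with Egr1 (r = 0.59; rho = 0.59; p = 0.000980; adjusted p = 0.00745) and Jund (r = 0.51; rho = 0.55; p = 0.00601; adjusted p = 0.0381) by permutation. By rank, the permutation p of these 5 relations was at most 0.00310 (adjusted p at most 0.0196). Without the 2 tumors farthest from the median of Fos, r was 0.66 with Junb, 0.71 with Ier2, 0.68 with Fosb, 0.52 with Egr1 and 0.50 with Jund. The 4 tumors that stood apart in Jund stayed in, so this cannot show whether the relation of Fos with Jund rests on them. The other 4 members, Fosl1, Jun, Atf3 and Dusp1, had r from 0.08 to 0.48 and did not pass on r, while Atf3 passed on rho (0.51; permutation p = 0.00557; adjusted p = 0.0271). Without the same 2 tumors Atf3 passed on r (0.55; permutation p = 0.00335; adjusted p = 0.0255), and r was 0.34 with Dusp1 (permutation adjusted p = 0.213). None of the 19 relations passed over the 13 p53-null tumors, where Fos with Dusp1 (r = 0.64; permutation p = 0.0182; adjusted p = 0.0864) was closest to passing.

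Plk2 transcript followed Fos among the PLK2-null tumors (r = 0.67; rho = 0.77; permutation p = 5.0e-05; adjusted p = 0.000665). The p of rho was 1.0e-05 by permutation, the smallest that 100000 resamples can give. Without the 2 tumors farthest from the median of Plk2, r was 0.78. Fos was the only member of the 10 to pass with Plk2 on r over all 28 tumors, and Fosb passed on r without those 2 (0.51; permutation adjusted p = 0.0389). Over all 28, Fosb and Ier2 passed on rho (0.52 and 0.50; permutation adjusted p = 0.0271 and 0.0337). In the p53-null tumors Plk2 and Fos had r = 0.33 (rho = 0.48; permutation p = 0.277; adjusted p = 0.479). The 3 named claudin-low PLK2-null tumors were among the lower Plk2 values, at 36.6, 54.4 and 128. Over the 7 tumors with 77xx numbers alone none of 19 relations passed, and r was 0.68 for Plk2 with Fos (exact permutation p = 0.0974; adjusted p = 0.370) and 0.71 for Fos with Junb (exact permutation p = 0.0863; adjusted p = 0.370).

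**Figure D5:**
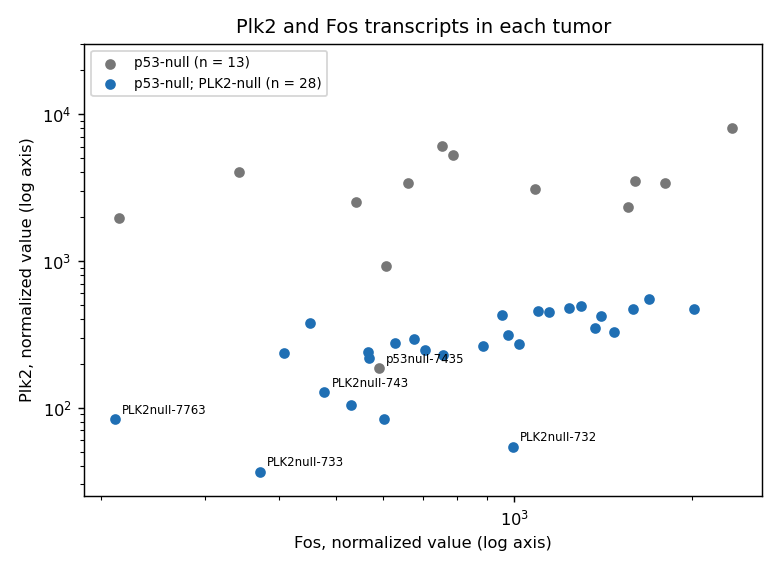
Plk2 against Fos in each tumor, both as deposited normalized values on log axes, with gray points for 13 p53-null and blue points for 28 PLK2-null tumors. The Fos ranges of the genotypes overlap, Plk2 is lower in the PLK2-null tumors, and the blue points rise together (r = 0.67).

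Whether a member followed the tumor or varied apart from it was described by matching each tumor with its nearest tumor of the same genotype over 2000 variable genes, with the members and listed genes left out. For the 28 PLK2-null tumors the nearest tumor had a median r of 0.77. The difference of a gene between nearest tumors was divided by its difference over all pairs, and the median of this ratio over all genes tested was 0.47. Fosb had a ratio of 1.09, with a median absolute log2 difference of 1.03 between nearest tumors and 0.94 over all pairs. The ratio was lower in 99.2% of the genes tested. Jun had a ratio of 0.76 (0.34 between nearest tumors and 0.45 over all pairs) and Fos of 0.69 (0.53 and 0.76), with 89.6% and 84.5% of genes lower. Fosl1 (0.27), Junb (0.29) and Ier2 (0.31) were alike between nearest tumors, with 9.84%, 13.02% and 16.5% of genes lower. Among the p53-null tumors the nearest tumor was less alike (median r, 0.39), and all 10 ratios lay between 0.84 and 1.01 around a median over all genes of 0.90.

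Of the tumors the study names by subtype, a name that it drew from these same expression data, the values are given as a description. The luminal-like tumor PLK2null-1975 had values of 1403 for Fos, 289 for Fosb, 500 for Fosl1, 3791 for Jun, 5817 for Junb and 2473 for Jund. Its other values were 2528 for Egr1, 2198 for Ier2, 779 for Atf3 and 507 for Dusp1. None of these 10 was the highest or lowest of its genotype. Its luminal-like p53-null counterpart p53null-2208L had the highest Ier2 of all 41 tumors (4454) and the highest Junb of the p53-null tumors (5331), and its Fos was 661, its Fosb 61.2 and its Dusp1 234.

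Among the tumors named claudin-low, p53null-T11 had the highest Fosl1 of all tumors (4008) and the highest Dusp1 of the p53-null tumors (1494), beside a Fosb of 201, the second highest there. The PLK2-null claudin-low tumors had the 3 highest Dusp1 values of all, at 4062 in PLK2null-732, 3454 in PLK2null-743 and 2463 in PLK2null-733. Their Fosl1 was not high, at 241, 199 and 212. Markers of several cell types were high in the same 3 tumors. The summed value of the 6 endothelial markers was 186496 in PLK2null-732, 165585 in PLK2null-743 and 176854 in PLK2null-733, against a PLK2-null median of 4889, while that of p53null-T11 was 6876. The summed value of 6 epithelial markers was 291, 45.7 and 67.1 in the same 3 tumors, against a PLK2-null median of 78270. That of p53null-T11 was 33742, the lowest of the p53-null tumors. None of these markers was at 0 in every tumor of a genotype. The 3 PLK2-null tumors had summed values of 99118 to 124694 for 5 adipocyte markers (PLK2-null median, 815) and 64477 to 249281 for 4 red blood cell markers (1776). Their sums were 1042 to 2036 for 6 T cell markers (200.2) and 661 to 887 for 4 B cell markers (26.6). Over all PLK2-null tumors the adipocyte marker Fabp4 had a mean log2(value + 1) of 10.4, against 3.13 for Adipoq, 2.64 for Cidec and 2.45 for Plin1. The adipocyte sum can therefore rest largely on Fabp4, and the share of each marker in these 3 tumors was not computed. The part of these cell types in the Dusp1 values was not tested. PLK2null-7763, next below these 3 in the endothelial (78025), adipocyte (51831) and red blood cell (15193) sums, had a Dusp1 of 1157.

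Other genes of the same response were read from lists. Of 39 other immediate-early genes, 12 were higher in PLK2-null tumors, 2 were lower and 25 did not pass, with a median log2 difference of 0.23 against 0.10 over all genes. Those with the largest rise were Nfkbiz, a nuclear regulator of NF-kappaB (1.76; SE, 0.24; adjusted p = 1.15e-07), Npas4 (1.17; adjusted p = 0.0359) and Egr3 (1.10; adjusted p = 0.0409), and Gadd45b (-0.62; adjusted p = 0.0196) and Ier5 (-0.57; adjusted p = 0.00684) were lower. Npas4 was near the floor of 3 reads, with a mean log2(value + 1) of 1.99 in p53-null and 3.16 in PLK2-null tumors. The share of 12 in 39 stands beside 24.3% of all genes. The count fell to 6 higher with quantile normalization (19.9% of all genes), and to 2 higher and 1 lower with the 7 tumors of 77xx numbers, where 11.6% of all genes were higher and 5.69% lower.

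Genes upstream were also read. Of 17 serum response and MAP kinase genes 8 were higher and 2 lower (median, 0.42), beside 24.3% and 15.3% of all genes. Rising most were Rps6ka3, a kinase that phosphorylates serum response factor and Fos (0.92; adjusted p = 1.74e-05), the coactivator Mkl2 (0.82; adjusted p = 0.000114) and the ternary complex factor Elk1 (0.67; adjusted p = 0.000263). The kinase genes Map2k2 (-0.83; adjusted p = 1.86e-05) and Map2k1 (-0.45; adjusted p = 0.0104), which encode MEK2 and MEK1, were lower. With the 7 tumors of 77xx numbers 7 were higher and 1 lower, beside 11.6% and 5.69% of all genes. Srf, the gene of serum response factor itself and named after its value was seen, had a log2 difference of -0.09 (adjusted p = 0.610).

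Of 14 AP-1 partners 5 were higher and 1 was lower (median, 0.25), beside 24.3% and 15.3% of all genes. With TMM factors, quantile normalization or without p53null-7435, 2 were lower, beside 18.8%, 19.3% and 14.5% of all genes. The higher ones included Atf7 (1.11; adjusted p = 1.03e-07) and Mafg (0.88; adjusted p = 7.43e-06), and the repressive partner Jdp2 was lower (-0.90; adjusted p = 0.00305). Of 16 MAP kinase feedback genes 5 were higher and none lower (median, 0.35), beside the same shares of all genes, led by Spred3, an inhibitor of Ras to MAP kinase signaling (2.36; adjusted p = 1.24e-07), the phosphatase Dusp4 (1.03; adjusted p = 0.0271) and the ETS factor Etv4 (0.87; adjusted p = 0.0107). Only 1 of the 16 passed with the 7 tumors of 77xx numbers, where it was higher, as were 11.6% of all genes.

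Of 17 AP-1 target genes tested (18 listed) 2 were higher, the collagenase gene Mmp13 (1.598; adjusted p = 0.0338) and the urokinase receptor gene Plaur (1.30; adjusted p = 0.0124), and none was lower (median, 0.26), where 24.3% of all genes were higher. This count was 4 without the named claudin-low tumors (25% of all genes), 1 without p53null-7435 (25.1%) and 0 with the 7 tumors of 77xx numbers (11.6%). Of 12 heat-shock genes, a separate stress response, none was higher and 5 were lower (median, -0.31), where 24.3% of all genes were higher and 15.3% lower. The lower ones included Hspb1 (-0.77; adjusted p = 0.0499), Hspe1 (-0.55; adjusted p = 0.00307) and Hsp90ab1 (-0.53; adjusted p = 0.000840). Only 3 were lower with quantile normalization (19.3% of all genes), and none of the 12 passed with the 7 tumors of 77xx numbers, where 5.69% of all genes were lower.

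The genes whose pattern over the 41 tumors was most like the mean of the members, after centering within genotype, were Cmip (r = 0.83), Trem1 (0.81), Klf6 (0.80), Rgs1 (0.80), Nedd9 (0.79), Cxcl2 (0.78), Ctsb (0.78), Fam96b (0.77), Fxyd5 (0.77) and B4galt1 (0.77). Klf6 is itself on the list of other immediate-early genes. Of the 39 genes of that list 12 had r above 0.5, against 4.66% of all genes, and their median r was 0.35 against -0.12. Nfkbiz (0.77), Zfp36 (0.75), Cyr61 (0.73) and Egr3 (0.73) followed Klf6, whereas Egr2 (-0.45) and Sik1 (-0.35) ran the other way. Of the 12 heat-shock genes 2 had r above 0.5.

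Cell type markers were read beside the 24.3% of all genes that were higher and the 15.3% that were lower. Of 5 neutrophil markers tested 2 were higher in PLK2-null tumors, Csf3r and Cxcr2, and the summed value of 6 ranged from 123 to 3081 in the p53-null tumors (median, 325) and from 239 to 3015 in the PLK2-null tumors (median, 1175). Of 4 muscle markers 3 were lower, with sums from 5.24 to 36841 (median, 53.6) in the p53-null and 5.72 to 2802 (median, 12.8) in the PLK2-null tumors. The highest muscle sums were those of p53null-2153L (36841) and p53null-7435 (25090). In addition 1 of 6 macrophage and 1 of 6 proliferation markers (Cd68 and Mki67) were higher. Lower were 1 of 4 adipocyte and 1 of 4 red blood cell markers tested (Cidec and Hbb-bt). The median log2 differences of these lists were 0.08, 0.14, -1.42 and -1.28. All but the red blood cell list also held estimates of the opposite sign. None of the epithelial, endothelial, fibroblast, T cell and B cell markers passed. The part of these cell types in the Fosb difference was not tested. Several members overlap other genes in the annotation, namely Junb with Prdx2, Jun with Junos, Jund with Gm11175, Fosl1 with Ccdc85b and Dusp1 with Ergic1, and the strand setting of the counting was not given in the sources used here.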

How the data were processed

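RNA of 41 mouse mammary tumors (28 PLK2-null, 13 p53-null) was measured with 1 library per tumor. The authors used STAR 2.7.6a to align the read pairs to mm10, quantified genes with Salmon 1.4.0 (Picard 2.22.4 and SAMtools are also named) and divided each tumor's estimated counts by their upper quartile. The deposited values are a linear signal with an upper quartile of 1000 over nonzero values. The gene annotation, strand setting and filters were not given in the sources used here.

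Columns were matched to tumors by title, and genotype was taken from the labels. Low values lie on steps worth 1 read. Between 77.8 and 80.5% of values in a tumor lay within 0.1 of a whole read, too few to recover reads, so no count model was used. This gave 29409598 to 70868089 fragments per tumor and a floor of 3 reads, which covers counting error only.

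Genes with a mean of at least 10 were tested with limma (3.58.1, in R 4.3.3) on log2(value + 1), 2-sided, without an intensity trend, with Benjamini-Hochberg adjustment and a threshold of 0.05. Correlations used permutation tests of 100000 resamples, exact for the 7 tumors with 77xx numbers. Python 3.11.15 (pandas 2.3.3, numpy 2.4.6, scipy 1.17.1, matplotlib 3.10.9) was used elsewhere, and TMM (trimmed mean of M values) factors were computed directly. GENCODE vM21 (GRCm38) gave positions, with 95.0% of symbols matching 1 gene, and RefSeq gave promoter windows. The tests were checked on simulated data with independent samples, so the checks do not cover shared lineage between tumors. In the limma check 57 of 97 genes changed by 1 on the log2 scale were called. So were 80 of 94 changed by 2 and 6 unchanged genes.

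Named genes were the 10 members, Plk2, the 10 genes most like the members (no predicted genes), and from each list at most 3 per direction with the largest fold change among those past the threshold. Genes near Jund, and genes in the likeness comparison beyond those 10, were named after their values were seen. Some genes that these rules name are not reported here. The members and lists were chosen with earlier results of these data known. Alternatives were other pseudocounts, filters, scalings, a limma trend and fewer tumors. Leaving out each tumor in turn was added after seeing the data.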

Additional observations from a re-analysis of the deposited data

How the results depend on the processing

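Every member lay above the floor of 3 reads in every tumor. Batch and genotype cannot be told apart, lineage between transplants was not labelled, and at this number of tumors the intervals of 6 members span changes in both directions. No paired analysis was possible because replicate numbers were given in accession order and the labels share none between genotypes. Of 100 checks of the 10 members under 10 other settings, 94 kept direction and side of the threshold. Fos, which did not pass in any, turned sign with TMM factors (-0.058), quantile normalization (-0.083), the 7 tumors with 77xx numbers (-0.48) and without p53null-7435 (-0.014), and Jund turned with the 7 (-0.038). Fosb lost its call with the 7 (1.01).

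With the 7 tumors of 77xx numbers the genes past the threshold fell from 6802 to 2942 (1972 higher, 970 lower), the members from 1 to 0, the genes on the pathway lists to 16 and the correlations from 6 to 0. Fewer tumors entered these fits. With quantile normalization 3425 genes were higher and 3325 lower, against 4175 and 2627, so that 50.7% of calls were higher in place of 61.4%. Leaving out each tumor in turn (chosen after seeing the data) gave 1 to 2 members past the threshold. Over 40 of these fits the Fosb difference was 1.72 to 1.99 with an adjusted p of at most 0.000160, Egr1 passed in 4, Fosl1 in 1 and Junb in 1.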
